A study of Mus musculus with 39 samples.

Results

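Translational efficiency, the footprint level of a gene relative to its RNA level, was compared between tumors of mice given difluoromethylornithine (DFMO) on the defined control diet and tumors of mice on that diet with no drug. The comparison was chosen by the labels of 19 of the 39 libraries in the series: footprint and RNA libraries of 5 DFMO mice (CD_DFMO_5747, CD_DFMO_5802, CD_DFMO_5806, CD_DFMO_5823 and CD_DFMO_135), footprint libraries of 5 control mice (CD_5696, CD_5778, CD_5781, CD_5812 and CD_5840), and RNA libraries of 4 of those controls; RNA of control CD_5840 was not analysed here. All tumors arose in TH-MYCN mice, labelled MYCN amplified, in which a MYCN transgene is driven in the sympathetic lineage by a tyrosine hydroxylase promoter. The rest of the series is tumors of mice on a diet without proline and arginine, with or without DFMO. Within each assay every library is a different mouse, and the footprints and the RNA of 1 mouse came from the same tumor extract. The labels state no age, sex, dose or length of treatment.

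DFMO is an irreversible inhibitor of ornithine decarboxylase, the enzyme that makes putrescine, from which spermidine and spermine are built. Polyamines bind RNA and ribosomes, and spermidine is the donor for hypusine, a modified lysine of the translation factor eIF5A that eases peptide bond formation at difficult sequences. In ribosome profiling, nuclease-protected fragments mark where ribosomes sat on an mRNA. A change in efficiency is a difference between 2 measured layers, and can come from more or fewer footprints, from less or more RNA, or from both.

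Across 11847 genes, efficiency rose in DFMO tumors for 1783 (15.1%) and fell for 1931 (16.3%), 3714 in all (31.3%), by edgeR's quasi-likelihood test at a Benjamini-Hochberg adjusted p under 0.05, and for most of them it was the RNA that differed. In the footprint layer, levels rose for 161 genes (1.36%) and fell for 128 (1.08%), while RNA rose for 3605 (30.4%) and fell for 2792 (23.6%). In bulk tumor, fewer cells of a type and less RNA per cell cannot be told apart. The median change over all genes was -0.18 (log2, DFMO over control) in efficiency, 0.02 in footprints and 0.21 in RNA, so an efficiency near -0.18 is that of the middle gene. By limma on log2 of the deposited RPKM the split of efficiency calls was 394 higher and 5768 lower, with an all-gene median of -0.86, so a direction near the middle gene depends on the scaling.

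The 4 control RNA libraries differed from one another and from the DFMO libraries before any gene was compared. Transcripts with at least 1 count numbered 15891 to 16317 in the DFMO RNA libraries, against 13385, 13387, 8806 and 15106 in the control RNA libraries of mice CD_5696, CD_5778, CD_5781 and CD_5812. Cytosolic ribosomal protein genes took 24.4% to 29.8% of counts in DFMO RNA, against 40.5%, 48.2% and 52.2% in control RNA of mice CD_5696, CD_5778 and CD_5781 and 31.2% in that of mouse CD_5812. In footprints the same share was 11.1% to 14.4% in DFMO tumors and 12.1% to 13.5% in control tumors. In units of 1000000 counts, totals were 5.13 to 9.04 in DFMO footprints and 2.14 to 4.57 in control footprints, and 30.4 to 51.5 in DFMO RNA and 10.0 to 33.8 in control RNA. The median gene's log2 footprint to RNA ratio was between -0.08 and -0.01 in the 5 DFMO mice, against -0.06 in control CD_5812 and 0.15, 0.24 and 1.63 in controls CD_5696, CD_5778 and CD_5781. Among DFMO mice, the RNA deviations of CD_DFMO_5823 and CD_DFMO_135 from the mean of all RNA libraries did not follow those of their own footprints across genes (r = -0.06 and -0.02). In control mice CD_5696, CD_5778, CD_5781 and CD_5812 this r was 0.12, 0.21, 0.07 and 0.31. Those deviations include differences between the groups. With deviations from the mean of each group, r was -0.02, 0.07, 0.01 and 0.03 in the same controls. It was then 0.58, -0.03, 0.43, -0.16 and -0.09 in CD_DFMO_5747, CD_DFMO_5802, CD_DFMO_5806, CD_DFMO_5823 and CD_DFMO_135. The neuroblast label was met in each library, since Phox2a, Hand2, Gata3, Th and Dbh all had counts in all 19. How far library quality sets the results that follow was not tested beyond the values with fewer libraries given beside them.

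**Figure D1:**
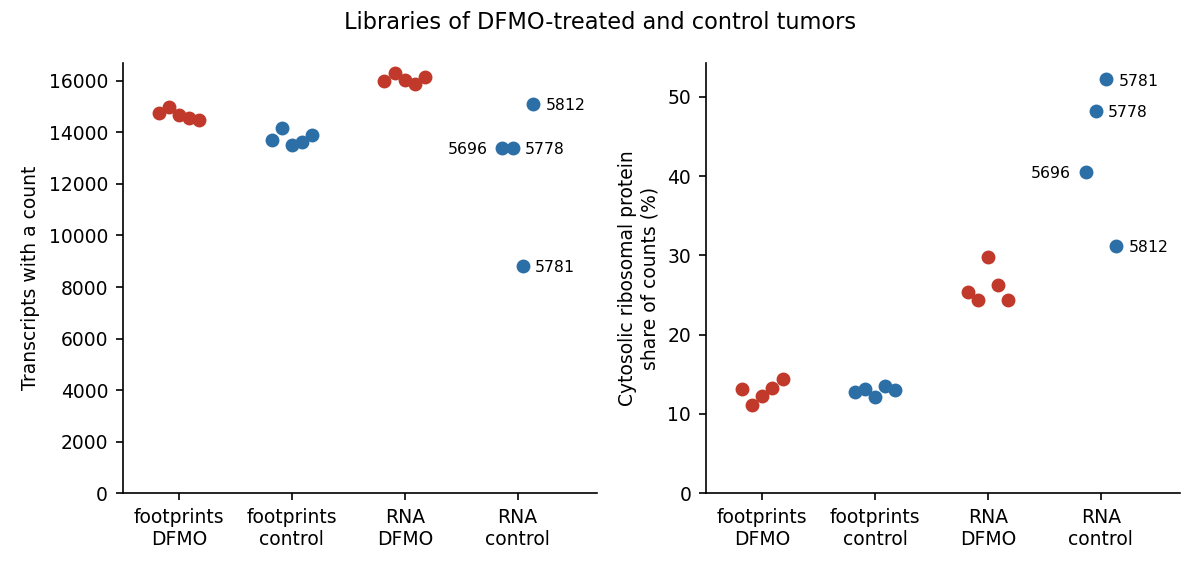
Transcripts with a count (left) and the share of counts on cytosolic ribosomal protein genes in percent (right) in each library of DFMO-treated tumors (red) and control tumors (blue), with footprint and RNA libraries apart and control RNA labelled by mouse. Footprint libraries of both groups sit between 11.1% and 14.4% ribosomal protein counts, and control RNA spreads between 31.2% (mouse CD_5812) and 52.2% (mouse CD_5781).

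Short stretches of coding sequence are shown for 6 of the genes described in the next paragraphs, because the median share of codons ending in A was 21.1% over genes whose efficiency rose and 14.8% over those whose efficiency fell. Each line gives the 20 codons from the annotated start codon, 5′ to 3′, read from the GENCODE M21 transcripts, with codons that end in A in capitals. All of it is exonic coding sequence on GRCm38. The transcripts lie at chr10:53596952-53609225 (Asf1a, plus strand), chr15:36174010-36177007 (Polr2k, plus strand), chr10:95515145-95545657 (Ube2n, plus strand), chr11:5788530-5800962 (Dbnl, plus strand), chr2:158116402-158146436 (Tgm2, minus strand) and chr7:79133769-79149060 (Mfge8, minus strand).
Asf1a: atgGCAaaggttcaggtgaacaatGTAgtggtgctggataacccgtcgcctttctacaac
Polr2k: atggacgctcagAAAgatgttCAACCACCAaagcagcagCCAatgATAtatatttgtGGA
Ube2n: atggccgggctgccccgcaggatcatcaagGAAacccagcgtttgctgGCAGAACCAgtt
Dbnl: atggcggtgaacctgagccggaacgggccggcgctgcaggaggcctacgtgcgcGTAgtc
Tgm2: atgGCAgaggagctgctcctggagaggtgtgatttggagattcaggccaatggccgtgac
Mfge8: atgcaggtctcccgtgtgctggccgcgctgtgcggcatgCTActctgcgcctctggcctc
Over the whole coding sequence, codons ending in A made up 30.9% in Asf1a, 32.8% in Polr2k and 30.9% in Ube2n, against 15.9% in Dbnl, 10.1% in Tgm2 and 9.29% in Mfge8. The median over all genes tested was 17.8%. These 6 were picked with their values known, to show the contrast over whole coding sequences, from 16 of the genes named by layer. Of the 20 codons shown, 2 end in A in Asf1a, 7 in Polr2k, 4 in Ube2n and 1 each in Dbnl, Tgm2 and Mfge8, so Asf1a hardly differs there. Not all of the 16 follow the contrast: Acta2, with higher efficiency, had 11.9%, and Zfp968 (19.3%) and Fam168b (20.1%), also higher, were near the median. Fbn2 (14.8%), with lower efficiency, was left out of the 16.

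Of the 3714 genes called for efficiency, the RNA layer alone passed its own test for 3406 (91.7%), of which 1637 had higher and 1769 lower efficiency. Footprints alone passed for 56 genes (1.51%), both layers passed in opposite directions for 19, both passed in the same direction with the larger change in RNA for 23, and neither layer passed alone for 210. The RNA change was larger in size than the footprint change for 93.4% of genes whose efficiency rose and 94.6% of those whose efficiency fell. Median changes of the risen genes were 0.09 in footprints and -1.34 in RNA, and those of the fallen genes were -0.09 in footprints and 1.55 in RNA. When each layer was fitted on its own libraries, which keeps the wide spread of the RNA libraries out of the footprint test, footprints rose for 1104 genes (9.32%) and fell for 1062 (8.96%), and RNA rose for 2645 (22.3%) and fell for 2263 (19.1%). In that fit 2643 (71.2%) of the efficiency calls were RNA only, 290 were footprints only, 246 were opposite and 229 went the same way with RNA larger.

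With CD_5812 as the only control RNA, 124 genes rose (1.05%) and 60 fell (0.506%) in efficiency, 184 in all (1.55%), and 2211 had an unadjusted p under 0.05, against 5056 with 4 control RNA libraries. Footprints then rose for 466 genes (3.93%) and fell for 416 (3.51%), and RNA rose for 523 (4.41%) and fell for 568 (4.79%). The lone control RNA is assumed to vary like the other groups of the fit. With so few calls over all genes, few or no passes are due in a short list. List counts given below for CD_5812 alone are therefore no result about a list. Of the 1783 genes called higher with 4 control RNA libraries, 1735 kept a positive value and 102 were still called. Of the 1931 called lower, 1931 kept a negative value and 51 were still called. The median efficiency of these genes was 0.77 in place of 1.45 for the higher and -0.97 in place of -1.64 for the lower genes, and the all-gene median was -0.003. RNA only remained the most frequent layer with 124 of 184 calls, but footprints only took 40 (21.7%). Leaving out also the RNA of mouse Proargdrop_5828, a mouse on the diet without proline and arginine whose RNA library likewise held few transcripts, left the values as they were and narrowed the spread, and then 718 genes rose (6.06%) and 577 fell (4.87%), of which 543 and 521 were among the 1783 and 1931. Per mouse, all 5 DFMO ratios lay above the ratio of control CD_5812 for 1336 of the 1783 higher genes, where 29.2% of all genes did, and below it for 1651 of the 1931 lower genes, where 28.8% of all genes did. They lay above all 4 control ratios for 1095 of the higher genes (10.2% of all genes) and below them for 1505 of the lower genes (16.5% of all genes). The genes were called from these same libraries, so ratios that separate more often than over all genes are partly built in. The kept signs likewise reuse the same footprints, DFMO RNA and CD_5812 RNA, so neither is an independent check.

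**Figure D2:**
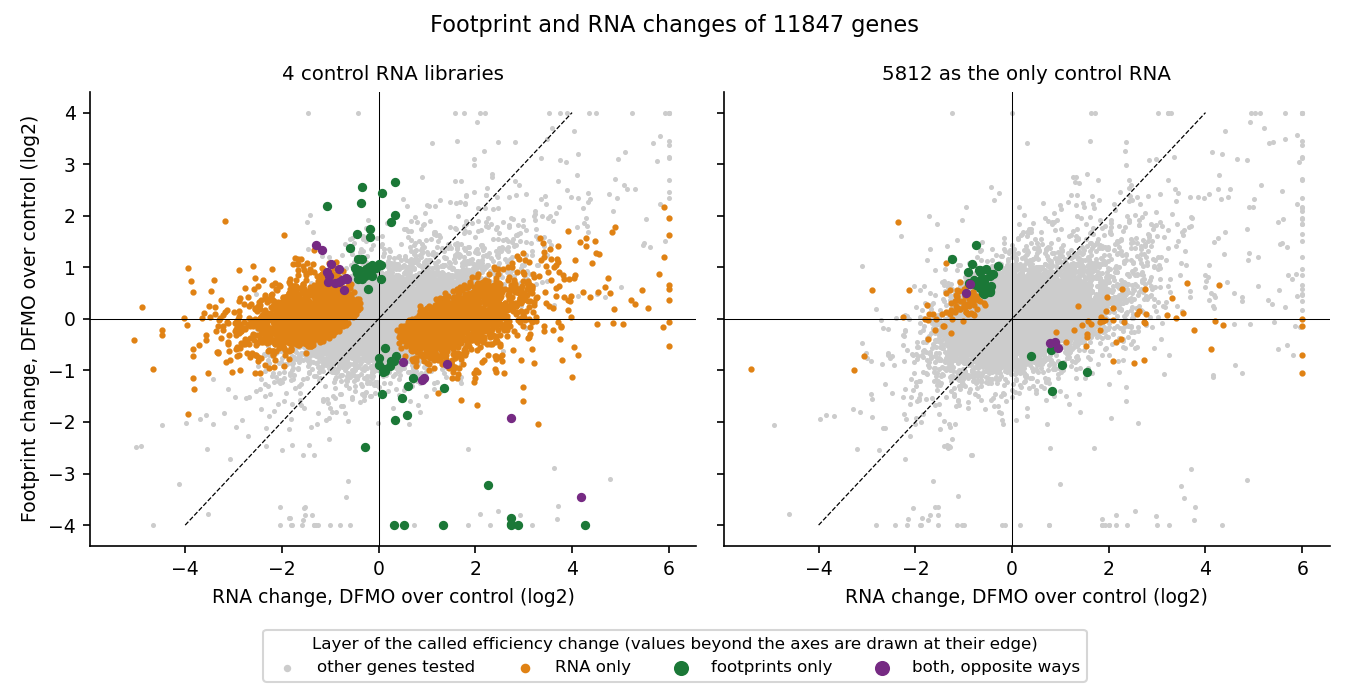
Footprint change against RNA change (both log2, DFMO over control) for 11847 genes, with all 4 control RNA libraries (left) and with mouse CD_5812 as the only control RNA (right), coloured by the layer that passed its own test among genes called for efficiency. On the dashed line both layers change alike and efficiency is the same. RNA only covers 3406 genes on the left and 124 on the right.

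The genes next described passed for efficiency both with 4 control RNA libraries and with CD_5812 alone. Mapk8, the kinase JNK1, had 18.5, 20.8, 17.5, 21.6 and 18.3 footprint CPM in DFMO tumors and 11.8, 13.3, 9.54, 11.9 and 9.64 in control tumors. Its RNA had 11, 9.05, 10.7, 12 and 11.9 CPM in DFMO tumors and 11.4, 15.0, 12.9 and 16.4 in control tumors. Every DFMO footprint value lay above every control value, while the RNA values overlapped. Efficiency rose by 1.13 ± 0.27 (log2, SE; edgeR adjusted p = 0.00246), footprints rose by 0.78 (adjusted p = 0.0209) and the RNA change of -0.35 did not pass (adjusted p = 0.119).

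Rab2a, a small GTPase of traffic between the endoplasmic reticulum and the Golgi, had 74.3, 86.0, 74.9, 97.9 and 90.4 footprint CPM in DFMO tumors and 48.5, 40.5, 49.1, 39 and 54.4 in control tumors. Its RNA had 81.3, 70.8, 67.2, 73.7 and 72.5 CPM in DFMO tumors and 83.4, 87.5, 57.9 and 97.8 in control tumors. Footprints did not overlap between the groups and RNA did. Efficiency rose by 1.03 ± 0.21 (edgeR adjusted p = 0.000771) and by 1.29 against control CD_5812 alone (adjusted p = 0.00636).

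Ube2n, the ubiquitin-conjugating enzyme Ubc13 that builds lysine-63 chains, had 172, 219, 223, 300.0 and 251 footprint CPM in DFMO tumors and 97.8, 113, 105, 121 and 120.0 in control tumors, with no overlap. Its RNA had 49.5, 50.8, 53.8, 49.9 and 45.4 CPM in DFMO tumors, against 63.8, 34.4, 8.79 and 88.6 in control tumors, which lay on either side of all DFMO values. Efficiency rose by 1.05 ± 0.41 (edgeR adjusted p = 0.0456) with 4 control RNA libraries and by 1.89 ± 0.32 (adjusted p = 0.0025) with CD_5812 alone, where its RNA was -0.84. Fam168b, a membrane protein of neurons, had a footprint rise of 1.04 (edgeR adjusted p = 0.00558) with an RNA change of 0.05 that did not pass. On log2 RPKM the efficiency values of Mapk8, Ube2n, Rab2a and Fam168b were 0.11, -0.42, -0.04 and -0.17, none called by limma, with an all-gene median of -0.86. With the mouse as a block on 38 libraries, Fam168b was 0.85 (edgeR adjusted p = 0.0657, against 0.0201 without the block) and Ube2n 0.72 (adjusted p = 0.248, against 0.0536). No gene with lower efficiency met the same rule in the footprints-only class.

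Both layers passed in opposite directions for Eloc, Btf3l4, Mrpl42 and Ccdc50, whose efficiency rose, and for Tgm2, whose efficiency fell. Eloc, elongin C of cullin ubiquitin ligases, had 82.7, 62.9, 70.9, 77.6 and 64.3 footprint CPM in DFMO tumors and 43.2, 51.2, 41.1, 47.6 and 36 in control tumors. Its RNA had 125, 93.0, 73.2, 99.8 and 87.0 CPM in DFMO tumors and 199, 266, 160.0 and 160.0 in control tumors. Neither layer overlapped between the groups, footprints being higher and RNA lower in all 5 DFMO tumors. Efficiency rose by 1.75 ± 0.25 (edgeR adjusted p = 5.73e-05) and by 1.45 (adjusted p = 0.0118) against control CD_5812 alone. For Btf3l4, a paralog of a factor that binds nascent chains, efficiency rose by 1.78, for Mrpl42, a mitochondrial ribosomal protein, by 1.98, and for Ccdc50, a ubiquitin-binding protein, by 1.59 (adjusted p from 5.73e-05 to 0.000244). On log2 RPKM Btf3l4 was 0.70 (limma adjusted p = 0.104) and Ccdc50 0.53 (adjusted p = 0.222), neither called, while Eloc and Mrpl42 still passed.

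Tgm2, a transglutaminase that crosslinks proteins and can also attach polyamines to them, had 35.9, 28.8, 31.8, 27.8 and 29.6 footprint CPM in DFMO tumors and 55.8, 63.2, 49.5, 55.7 and 59.7 in control tumors. Its RNA had 15.2, 13.8, 15.3, 15.9 and 14.0 CPM in DFMO tumors and 4.75, 5.38, 4.39 and 7.26 in control tumors. Footprints were lower and RNA higher in every DFMO tumor. Efficiency fell by 2.30 on the log2 scale (SE 0.36, edgeR adjusted p = 8.85e-05), and the value with CD_5812 alone was -1.91 (adjusted p = 0.0437).

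For the other 8 genes named by the rule, the RNA layer alone passed in the fit of all libraries. When each layer was fitted on its own assay, footprints passed too, in the direction opposite to RNA, for Asf1a (adjusted p = 0.0361), Zfp968 (0.0107), Acta2 (0.019), Mfge8 (0.0291) and Fbxw8 (0.0181) by edgeR, and Polr2k, Dbnl and Fbn2 stayed RNA only. Asf1a, a histone chaperone for H3 and H4, had 15.7, 18.9, 18.2, 25.9 and 18.4 footprint CPM in DFMO tumors and 18.3, 15.8, 10.6, 11.9 and 12 in control tumors, which overlap. Its RNA had 23.6, 25.1, 24.1, 20.1 and 22.0 CPM in DFMO tumors, against 75.3, 141, 56.1 and 59.3 in control tumors, with the control of mouse CD_5812 more than 2 times the highest DFMO value. Efficiency rose by 2.35 ± 0.31 (edgeR adjusted p = 3.32e-05) and by 1.87 (adjusted p = 0.0025) with CD_5812 alone.

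Polr2k, a small subunit shared by the RNA polymerases, had 27.5, 35.6, 36.3, 64.1 and 54.5 footprint CPM in DFMO tumors and 12.6, 30.8, 19.1, 42.6 and 26.8 in control tumors. Its RNA had 6.39, 6.89, 5.75, 6.2 and 5.23 CPM in DFMO tumors and 19, 29.0, 25.8 and 15.2 in control tumors, with no overlap in RNA. Efficiency rose by 2.57 ± 0.43 (edgeR adjusted p = 0.000139). It also rose for the zinc finger gene Zfp968 (2.83) and for the smooth muscle actin gene Acta2 (2.69), but actin genes are close in sequence and reads may be shared among them.

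Among falls, Mfge8, a secreted protein that bridges dying cells to phagocytes, had 36.5, 25.5, 22.7, 20.6 and 21.6 footprint CPM in DFMO tumors and 39.1, 35.4, 45.8, 24.4 and 38.3 in control tumors. Its RNA had 33.4, 35.9, 27.5, 30.3 and 31.5 CPM in DFMO tumors and 4.45, 2.31, 3.10 and 10.9 in control tumors. RNA was higher in every DFMO tumor, also against mouse CD_5812, and footprints overlapped. Efficiency fell by 3.04 on the log2 scale (SE 0.42, edgeR adjusted p = 4.68e-05).

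Dbnl, drebrin-like, an actin-binding adaptor of endocytosis, had 71.8, 56.2, 48.3, 47.2 and 48.1 footprint CPM in DFMO tumors and 55.8, 51.4, 56.1, 58.0 and 58.9 in control tumors. Its RNA had 118, 108, 101, 109 and 113 CPM in DFMO tumors and 23.9, 14.9, 4.39 and 37.0 in control tumors. The footprint groups overlapped and the RNA groups did not. Efficiency fell by 2.46 on the log2 scale (SE 0.40, edgeR adjusted p = 0.000109), and the microfibril gene Fbn2 (-4.08) and the ubiquitin ligase subunit Fbxw8 (-2.99) were also lower.

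**Figure D3:**
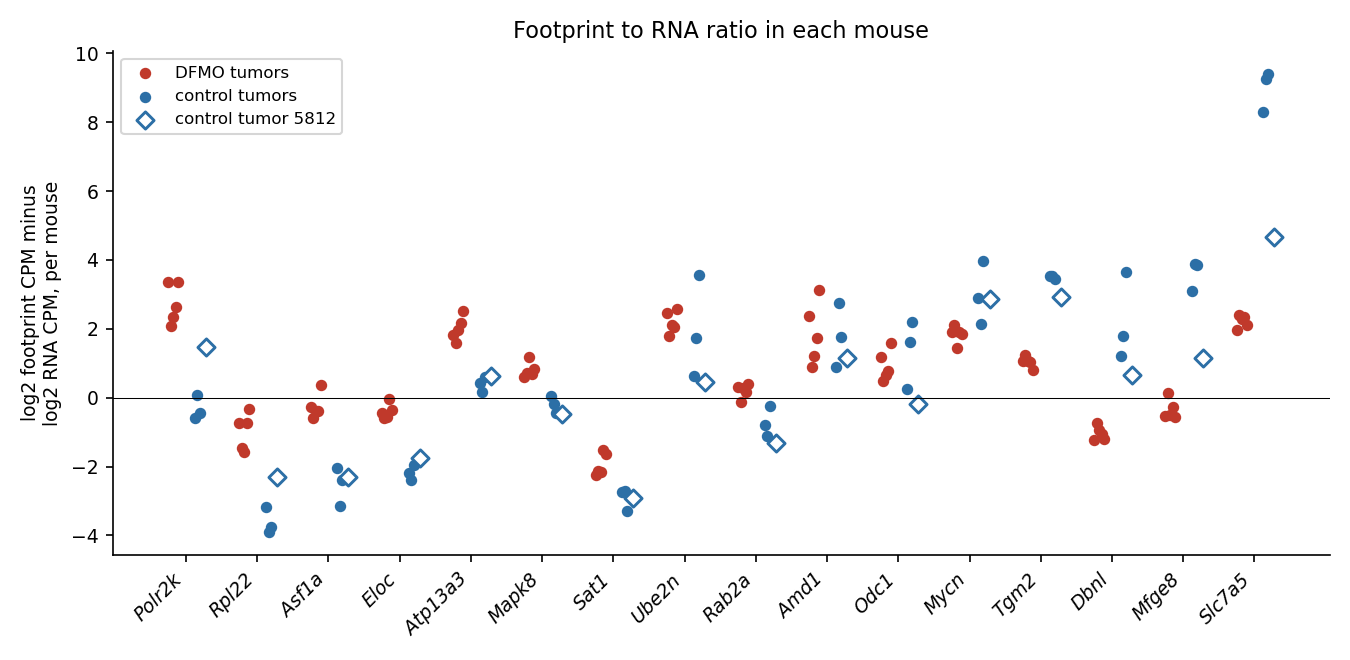
Log2 footprint CPM minus log2 RNA CPM in each mouse with both assays for 16 genes, ordered by the change in efficiency, with DFMO tumors in red, control tumors in blue and control CD_5812 as an open diamond. The 5 DFMO points of Mapk8, Eloc and Asf1a lie above all 4 control points and those of Mfge8 and Dbnl below them, while those of Odc1 and Amd1 overlap the controls.

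Of a panel of 17 genes of polyamine, hypusine and proline metabolism and Mycn, chosen with earlier results of these data known, 2 rose and 3 fell with 4 control RNA libraries, none passed with CD_5812 alone, and 2 passed without the 4 RNA libraries with few transcripts. For comparison, 15.1% of all genes rose and 16.3% fell with 4 control RNA libraries, and 6.06% and 4.87% without those 4 libraries. The panel counts are therefore no result about the panel. Odc1, ornithine decarboxylase itself, had 336, 466, 616, 791 and 588 footprint CPM in DFMO tumors and 405, 416, 418, 389 and 439 in control tumors. Its RNA had 240.0, 297, 356, 262 and 262 CPM in DFMO tumors and 341, 136, 91.8 and 436 in control tumors. The control RNA of mouse CD_5812 was above all DFMO values, that of CD_5696 above 4 of 5 and that of CD_5778 and CD_5781 was below all of them. Efficiency was 0.26 ± 0.36 (edgeR adjusted p = 0.599) with 4 control RNA libraries and 1.06 ± 0.32 (adjusted p = 0.068) with CD_5812 alone, and it rose by 1.06 (adjusted p = 0.0204) without the 4 RNA libraries with few transcripts, while it was -0.23 without mouse CD_5812.

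Sat1, the acetyltransferase that starts polyamine breakdown and export, had 15.7, 12.7, 16.2, 19.6 and 12.2 footprint CPM in DFMO tumors and 17.5, 24.4, 9.90, 14.9 and 9.90 in control tumors. Its RNA had 68.2, 57.2, 46.3, 60.5 and 57.7 CPM in DFMO tumors and 117, 159, 96.9 and 114 in control tumors. All DFMO RNA values lay below all control values and footprints overlapped. Efficiency rose by 1.06 ± 0.31 (edgeR adjusted p = 0.00935), with 0.95 (adjusted p = 0.165) against CD_5812 alone and 0.06 (limma adjusted p = 0.899) on log2 RPKM. Paox, the oxidase of acetylated polyamines, rose by 1.03 in efficiency (edgeR adjusted p = 0.0489), with both layers lower in DFMO tumors. Its RNA changed by -1.96 (adjusted p = 2.35e-06) and its footprints by -0.92 (adjusted p = 0.074, and 0.00136 when fitted on footprints alone). Its efficiency was 0.31 against CD_5812 alone and -0.08 on log2 RPKM. On 38 libraries it was 0.95 (edgeR adjusted p = 0.0695) with the mouse as a block and 1.01 (adjusted p = 0.0695) without the block.

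Atp13a3, a P-type ATPase that carries polyamines into cells, had 19, 20.3, 23.1, 34.8 and 26.4 footprint CPM in DFMO tumors and 15.9, 22.8, 20.2, 19.3 and 18 in control tumors. Its RNA had 6.21, 5.07, 5.11, 6.01 and 7.41 CPM in DFMO tumors and 11.9, 20.1, 13.2 and 12.5 in control tumors. RNA was lower in every DFMO tumor and the footprint groups overlapped. Efficiency rose by 1.63 ± 0.31 (edgeR adjusted p = 0.00034), and it also passed with CD_5812 alone (1.42, adjusted p = 0.0365), but not on log2 RPKM (0.43, limma adjusted p = 0.1). Atp13a2, the lysosomal polyamine exporter, fell by 1.52 on the log2 scale (adjusted p = 0.00665), and its value was -1.13 (adjusted p = 0.117) with CD_5812 alone.

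Amd1, the decarboxylase that supplies aminopropyl groups for spermidine, had 54.1, 59.2, 97.9, 286 and 164 footprint CPM in DFMO tumors and 37.9, 77.1, 27.5, 65.8 and 34.4 in control tumors. Its RNA had 29.0, 25.4, 29.3, 32.5 and 31.5 CPM in DFMO tumors and 20.5, 11.3, 8.01 and 29.4 in control tumors. The footprint groups overlapped, with the highest values in mice CD_DFMO_5823 and CD_DFMO_135. They rose by 1.44 (edgeR adjusted p = 0.0178), but efficiency (0.70, adjusted p = 0.28) did not pass. Azin1, the antizyme inhibitor that protects ornithine decarboxylase, was 1.21 in footprints (adjusted p = 0.0661; 1.19 and 0.000658 when fitted on footprints alone) and 0.33 in efficiency. Eif5a, the carrier of hypusine, was -0.47 in efficiency (adjusted p = 0.452) and 0.00 in footprints, and its efficiency was 0.42 with CD_5812 alone and -2.07 (limma adjusted p = 0.0191) on log2 RPKM. Oaz1, Oaz2, Srm, Sms, Smox, Dhps, Dohh and Oat, the other 8 of the 17, lay between -0.49 and 0.89 with none called. Odc1 and Amd1 have near-identical copies in the mouse genome, so their values are uncertain where reads were shared. Over the 26 genes of polyamine metabolism tested, 5 rose and 2 fell, where 15.1% of all genes rose and 16.3% fell. Their median was 0.17, and -1.04 on log2 RPKM, with all-gene medians of -0.18 and -0.86. With CD_5812 alone 1 rose and 0 fell.

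Mycn, the mouse gene of the oncogenic transcription factor, had 293, 262, 298, 252 and 291 footprint CPM in DFMO tumors and 308, 258, 333, 294 and 357 in control tumors. Its RNA had 68.1, 96.6, 79.4, 69.9 and 77.6 CPM in DFMO tumors and 41.3, 58.2, 20.9 and 40.3 in control tumors. Footprints overlapped and RNA did not. Efficiency fell by 1.11 on the log2 scale (SE 0.28, edgeR adjusted p = 0.00325), with -1.11 (adjusted p = 0.0666) against CD_5812 alone and -1.11 (adjusted p = 0.00336) without the 4 RNA libraries with few transcripts. Whether reads of the transgene were counted with the mouse gene is not stated in the labels.

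Of 29 proline and arginine genes tested, efficiency fell for 9 and rose for 0, where 16.3% of all genes fell and 15.1% rose, with a median of -0.86. Pycr1, which closes the last step of proline synthesis, fell by 1.97 on the log2 scale (edgeR adjusted p = 0.0101), and Aldh18a1, which catalyses the entry step, fell by 1.30 (adjusted p = 0.00868). In the fit of all libraries RNA alone passed for both (1.34 and 0.76). When each layer was fitted on its own assay, footprints alone passed (-0.63 and -0.54, edgeR adjusted p = 0.0274 and 0.00932). RNA then did not pass (adjusted p = 0.0515 and 0.0654), so their layer depends on the fit. Got2, the mitochondrial aspartate aminotransferase, fell by 2.91 in efficiency (edgeR adjusted p = 0.000507) and was RNA only in both fits. With CD_5812 alone the median efficiency of the 29 was -0.32, against -0.003 over all genes.

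Among genes of the translation machinery, efficiency rose for 70 of 82 cytosolic ribosomal proteins and fell for 0, where 15.1% of all genes rose and 16.3% fell. Their median change was 1.82 in efficiency, 0.03 in footprints and -1.72 in RNA, against -0.18, 0.02 and 0.21 over all genes. Rpl22, a protein of the large subunit, had 185, 270.0, 362, 390.0 and 320.0 footprint CPM in DFMO tumors and 285, 321, 307, 302 and 294 in control tumors. Its RNA had 513, 815, 598, 492 and 526 CPM in DFMO tumors, against 2580, 4810, 4100 and 1480 in control tumors, the lowest being that of mouse CD_5812. Efficiency rose by 2.48 ± 0.43 (edgeR adjusted p = 0.000154), and it was 1.34 (adjusted p = 0.141) with CD_5812 alone. Rps27 (2.20) and Rps26 (3.28), proteins of the small subunit, rose likewise. With CD_5812 alone the median efficiency of the 82 was 0.68, against -0.003 over all genes. These genes have many near-identical processed copies, and how reads shared with them were counted is not stated in the labels.

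Efficiency also rose for 38 of 77 mitochondrial ribosomal proteins and fell for 6, rose for 41 of 75 oxidative phosphorylation subunits and fell for 4, and rose for 22 of 51 ribosome biogenesis factors and fell for 3, beside 15.1% of all genes higher and 16.3% lower. Their medians were 0.77, 0.91 and 0.57, and with CD_5812 alone 0.43, 0.40 and 0.43, where 2 of 77, 1 of 75 and 1 of 51 rose and 0 fell. Mrps36, long listed as a mitochondrial ribosomal protein, rose by 1.53 (edgeR adjusted p = 0.000738), and its value was 1.55 (adjusted p = 0.0109) with CD_5812 alone and 0.32 on log2 RPKM, not called. Uqcrb, a subunit of complex III, rose by 1.8 and passed with CD_5812 alone (1.36, adjusted p = 0.0333), and Cox7c, of complex IV, rose by 3.35 (adjusted p = 6.81e-05) and missed it (1.83, adjusted p = 0.0776). Brix1, a factor of large subunit assembly, rose by 2.04 (edgeR adjusted p = 0.000383), and its value was 1.14 with CD_5812 alone. When footprints were fitted alone, they fell for 21 of the 51 biogenesis factors and rose for 0, where 8.96% of all genes fell and 9.32% rose. On log2 RPKM the medians of the mitochondrial ribosomal, oxidative phosphorylation and biogenesis lists turned negative (-0.35, -0.19 and -0.48), with an all-gene median of -0.86.

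Translation factors were mixed, with 13 of 50 higher and 5 lower, beside 15.1% of all genes higher and 16.3% lower. Their median was 0.19, and -0.98 on log2 RPKM, with all-gene medians of -0.18 and -0.86. With CD_5812 alone 0 of the 50 passed. Eif5b, which joins the ribosomal subunits, rose by 3.17 (edgeR adjusted p = 0.000696), with 0.87 (adjusted p = 0.525) against CD_5812 alone. Eif4h, a helper of the helicase that unwinds leader sequences, fell by 1.97 (edgeR adjusted p = 0.0021), and its value was -0.92 with CD_5812 alone. Of 20 cytosolic aminoacyl-tRNA synthetases 1 rose and 4 fell in efficiency, with a median of -0.13, and -0.24 with CD_5812 alone. Their footprints, fitted alone, rose for 2 and fell for 12, where 9.32% of all genes rose and 8.96% fell.

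Of 55 neuronal genes tested, RNA rose for 29 and fell for 7, footprints rose for 7 and fell for 2, and efficiency rose for 4 and fell for 18, with medians of 0.95, 0.22 and -0.45. Over all genes RNA rose for 30.4% and fell for 23.6%, footprints for 1.36% and 1.08%, and efficiency for 15.1% and 16.3%. Ina (internexin) fell by 2.41 and Nefm (neurofilament medium) by 1.98 in efficiency (edgeR adjusted p = 0.000284 and 0.000403). With CD_5812 alone the RNA median was 0.83 and the efficiency median -0.37, and 1 rose and 1 fell. Among 22 neuroblast and catecholamine markers 1 rose and 4 fell in efficiency, among them Phox2a, a homeobox regulator of the sympathetic lineage (-2.42, adjusted p = 0.00141), and Mycn, and 0 of the 22 passed with CD_5812 alone. The summed level of the 23 neuroblast markers was 2330 to 3000 CPM in DFMO footprints and 2260 to 2880 in control footprints, but 1930 to 2210 in DFMO RNA and 235 to 1080 in control RNA.

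Stress targets of the transcription factor ATF4 had 2 of 41 higher and 12 lower, with a median of -0.37, where 15.1% of all genes rose and 16.3% fell. Their median was -0.35 in footprints and 0.01 in RNA. When footprints were fitted alone, 1 of the 41 rose and 14 fell, where 9.32% of all genes rose and 8.96% fell. With CD_5812 alone the median efficiency of the 41 was -0.42. Slc7a5, a carrier of large neutral amino acids, had 67.2, 49.9, 67.0, 60.2 and 48.2 footprint CPM in DFMO tumors and 65.2, 64.5, 72.2, 58.9 and 63.6 in control tumors. Its RNA had 12.7, 10.1, 13.3, 13.9 and 12.3 CPM in DFMO tumors, against 0.10, 0, 0 and 2.23 in control tumors. The control RNA of mice CD_5778 and CD_5781 held no read of it while their footprints were as high as those of the others. The fitted efficiency was -3.91 (edgeR adjusted p = 0.000341), a size that depends on how the fit treats values at 0, and -2.62 (adjusted p = 0.0853) with CD_5812 alone. Of 26 genes of the unfolded protein response 7 rose and 4 fell in efficiency, with a median of -0.21, and 0.07 with CD_5812 alone. Their footprints, fitted alone, rose for 0 and fell for 11. Hsp90b1, the chaperone GRP94, rose by 2.27 in efficiency (edgeR adjusted p = 0.00136), and its value was 1.04 with CD_5812 alone.

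Over all genes efficiency rose for 15.1% and fell for 16.3%. Cholesterol synthesis genes had 1 of 24 higher and 8 lower in efficiency (median -0.90, and -0.19 with CD_5812 alone). Their RNA rose for 14 and fell for 1, where that of all genes rose for 30.4% and fell for 23.6%. The RNA median of the 24 was 0.93, and 0.28 with CD_5812 alone. Hsd17b7, a reductase of the pathway, fell by 2.33 (edgeR adjusted p = 0.00186), and its value was -1.59 with CD_5812 alone. Mitosis genes had 7 of 30 higher and 2 lower (1 and 0 with CD_5812 alone), and Ube2c, the ubiquitin-conjugating enzyme of the anaphase-promoting complex, rose by 2.10 and passed with CD_5812 alone (1.59, adjusted p = 0.0457). DNA replication genes had 9 of 40 higher and 3 lower, with a median of -0.12, and 0.15 with CD_5812 alone. The licensing factor Cdt1 fell by 2.14 (edgeR adjusted p = 0.000154), and its value was -1.49 with CD_5812 alone. Replication-dependent histones had 6 of 45 higher and 0 lower with a median of 0.64, which was -0.86 with CD_5812 alone and -0.43 on log2 RPKM. Relative to all genes it was 0.82 in the main fit, -0.86 with CD_5812 alone and 0.43 on log2 RPKM. The linker histone H1f4 rose by 2.47 (edgeR adjusted p = 0.00229), with 0.24 against CD_5812 alone and 0.48 on log2 RPKM, not called. Its footprints averaged 1200 CPM in DFMO and 1320 in control tumors, but its RNA was near the floor, so its efficiency is uncertain. RNA was 0.412, 0.727, 0.623, 0.402 and 0.594 CPM in DFMO tumors and 1.48, 1.54, 13.2 and 0.709 in control tumors, highest in CD_5781. H1f3 and H3c3 were alike, with mean RNA of 0.435 and 1.47 CPM in DFMO tumors and 3.03 and 4.17 in control tumors. Their footprints averaged 1130 and 4990 CPM in DFMO tumors and 1340 and 4060 in control tumors, so their efficiency is uncertain too. Of 24 interferon response genes 0 rose and 2 fell, with a median of 0.07, and -0.10 with CD_5812 alone. That median changed sign with RLE scaling (-0.03) and on log2 RPKM (-0.63), where the all-gene medians were -0.23 and -0.86. Relative to all genes it was 0.25 in the main fit, 0.20 with RLE scaling and 0.23 on log2 RPKM.

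Of 24 fibroblast and pericyte markers 1 rose and 11 fell in efficiency, with medians of -1.18 in efficiency, -0.56 in footprints and 1.01 in RNA, where 15.1% of all genes rose and 16.3% fell in efficiency. With CD_5812 alone 1 rose and 0 fell. Col6a1, a collagen VI chain, fell by 2.34 (edgeR adjusted p = 0.00127). Their summed level was 1660 to 3820 CPM in DFMO footprints and 2360 to 4470 in control footprints, against 937 to 1290 in DFMO RNA and 180.0 to 645 in control RNA, where Pdgfra was at 0 in 3 of 4 libraries. Erythroid genes summed to 1150 to 1840 CPM in DFMO footprints and 3790 to 13100 in control footprints, and to 1360 to 4030 in DFMO RNA and 5370 to 51600 in control RNA, with every control library above every DFMO library in each layer. Of the 7 tested 0 were called for efficiency.

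Endothelial markers summed to 102 to 196 CPM in DFMO footprints and 220.0 to 349 in control footprints, with RNA overlapping at 130.0 to 147 and 114 to 187, and 4 of 19 rose and 1 fell in efficiency, where 15.1% of all genes rose and 16.3% fell. Macrophage markers had 1 of 20 higher and 5 lower, with 749 to 1100 CPM in DFMO footprints, 978 to 1870 in control footprints, 1320 to 1610 in DFMO RNA and 231 to 1240 in control RNA. Schwann cell markers summed to 79.7 to 256 CPM in DFMO footprints and 58.0 to 114 in control footprints, which overlap, and to 84.2 to 200 in DFMO RNA and 5.41 to 21.7 in control RNA. Sox10 was at 0 in 3 of 4 control RNA libraries and S100b in all 5 control footprint libraries, but S100b RNA had a median of 0.815 CPM in DFMO tumors and 1.03 in control tumors. Of the 8 tested, 0 rose and 1 fell in efficiency. T, NK and B cell markers stayed between 6.86 and 21.2 CPM summed in all libraries, with Ncr1 at 0 in all control libraries and all DFMO RNA libraries, and 0 of 2 tested rose and 1 fell. Adrenal cortex and other organ markers had 1 of 19 higher and 4 lower, with 1010 to 1360 CPM in DFMO footprints, 1170 to 2690 in control footprints, 44.9 to 112 in DFMO RNA and 60.3 to 238 in control RNA. The 1 that rose was the actin gene Acta1 (1.95, edgeR adjusted p = 0.00146), whose reads may be shared with other actin genes. By TMM sizes it averaged 887 CPM in DFMO footprints and 864 in control footprints, much of these sums. The adrenal cortex marker Cyp11a1 had footprint medians of 2.16 and 6.02 CPM. Of the 4 organ markers that fell, 3 were footprints only and 1 had both layers in opposite directions. They include Amy2a5 (-7.09) and Pnlip (-7.64), with mean control RNA of 0.0422 and 0.122 CPM by TMM sizes, near the floor. Their footprints were highest in control CD_5840, at 635 and 45.1 CPM, against 20.5 to 106 and 1.33 to 8.56 in the other controls. RNA of CD_5840 was not analysed here. With CD_5812 alone 0 of the endothelial, macrophage, Schwann and lymphoid markers passed, and 1 organ marker rose. The part of these cell types in the efficiency calls was not tested.

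**Figure D4:**
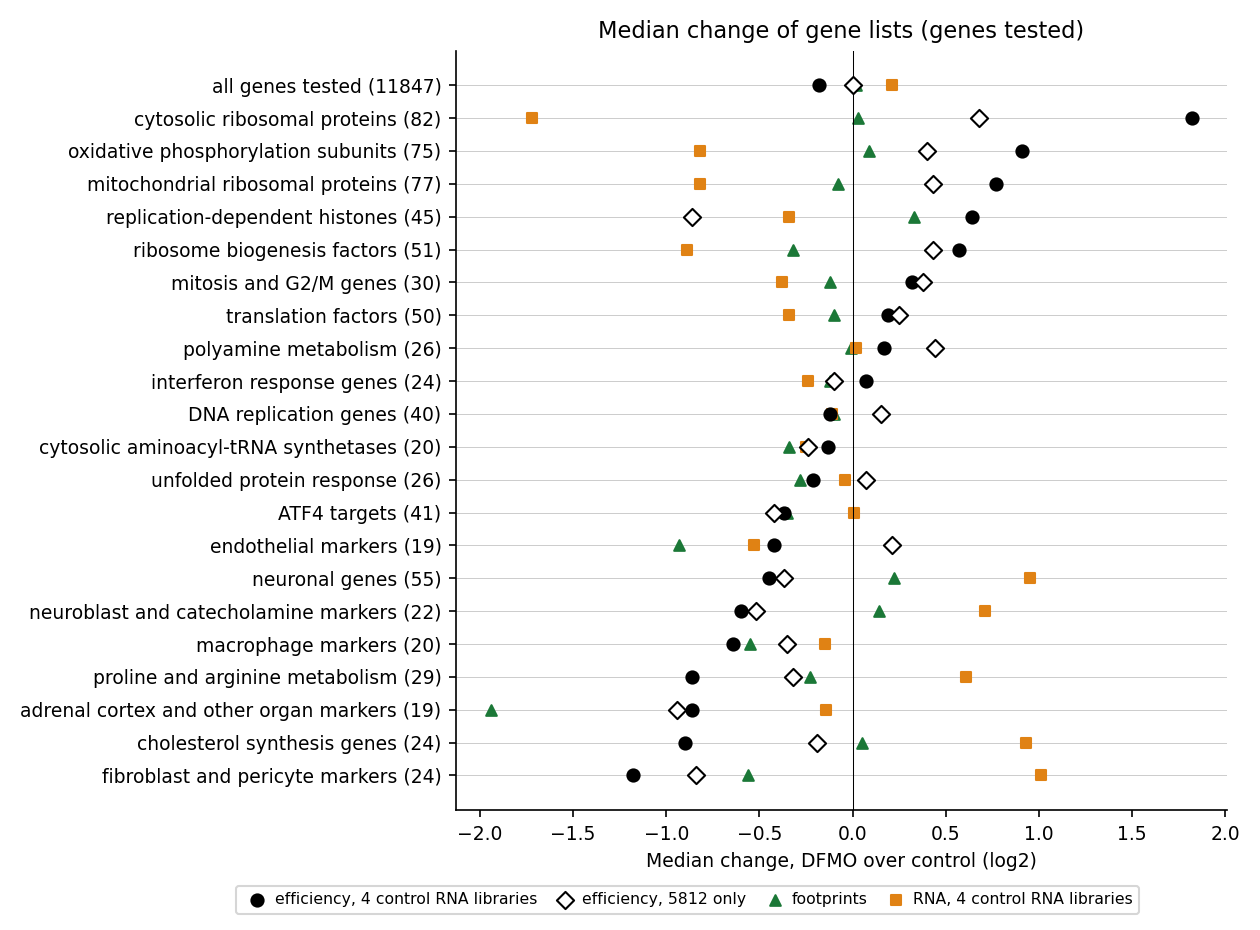
Median log2 change (DFMO over control) of each gene list with at least 19 genes tested, with the number tested in brackets, for efficiency with 4 control RNA libraries (filled circle) and with CD_5812 alone (open diamond), footprints (triangle) and RNA (square). Cytosolic ribosomal proteins stand at 1.82 in efficiency with footprints at 0.03 and RNA at -1.72, and their efficiency is 0.68 with CD_5812 alone.

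The share of codons ending in A, which the choice of groups did not use, varied with efficiency. Among the 11785 genes with an annotated coding sequence (99.5%), the median efficiency change in quintiles ordered by the share of codons ending in A was -0.58, -0.44, -0.25, -0.02 and 0.30, lowest share first. Efficiency rose for 8.70% of the lowest quintile and 26.1% of the highest and fell for 26.3% and 3.86%. The order was the same with CD_5812 alone, with -0.42 in the lowest and 0.45 in the highest quintile. RNA ran the opposite way, with medians of 0.53 in the lowest and -0.16 in the highest quintile, and footprints differed less, with -0.07 and 0.17. The lists with the most rises ran against this order, since the median share of codons ending in A was 15.6% in cytosolic ribosomal proteins and 15.5% in oxidative phosphorylation subunits, both below the 17.8% of all genes.

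Library by library, the highest minus the lowest quintile (medians of log2 CPM, each gene centred on its mean over the libraries of both groups in that assay) was -0.13, -0.60, -0.42, -0.21 and -0.39 in RNA of DFMO mice CD_DFMO_5747, CD_DFMO_5802, CD_DFMO_5806, CD_DFMO_5823 and CD_DFMO_135, against 0.32, 0.36, 0.91 and 0.28 in RNA of control mice CD_5696, CD_5778, CD_5781 and CD_5812. In footprints it was 0.01, -0.01, 0.06, 0.29 and 0.22 in DFMO mice and -0.16, 0.09, -0.26, -0.17 and -0.08 in control mice CD_5696, CD_5778, CD_5781, CD_5812 and CD_5840. RNA did not overlap between the groups, mouse CD_5812 included, and footprints overlapped through mouse CD_5778 alone.

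Within each quintile of coding length and of RNA level, genes with the highest share of codons ending in A again had a higher median efficiency than those with the lowest, from 0.22 against -0.71 in the longest quintile to 0.48 against -0.14 in the shortest, and from -0.06 against -1.05 at the lowest RNA level to 1.07 against 0.22 at the highest. For the other bases, medians from the lowest to the highest quintile ran from -0.52 to 0.20 for codons ending in T, from 0.17 to -0.34 for G and from 0.29 to -0.62 for C. Effects of A at the codon end and of low GC content cannot be told apart by these medians. Efficiency was also higher in the shortest quintile of coding sequences (0.22, against -0.19 to -0.31 in the other 4), and in the highest quintile of RNA level (0.51, against -0.60 in the lowest). With CD_5812 alone the RNA level values were 0.26 and -0.37. RNA level was the mean over the same RNA libraries that enter efficiency, so the 2 are not independent. Genes whose protein holds a run of 3 prolines, a motif that needs eIF5A, had a median of -0.35, against -0.13 in genes without one, with footprints at 0.00 and 0.03 and RNA at 0.32 and 0.17.

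**Figure D5:**
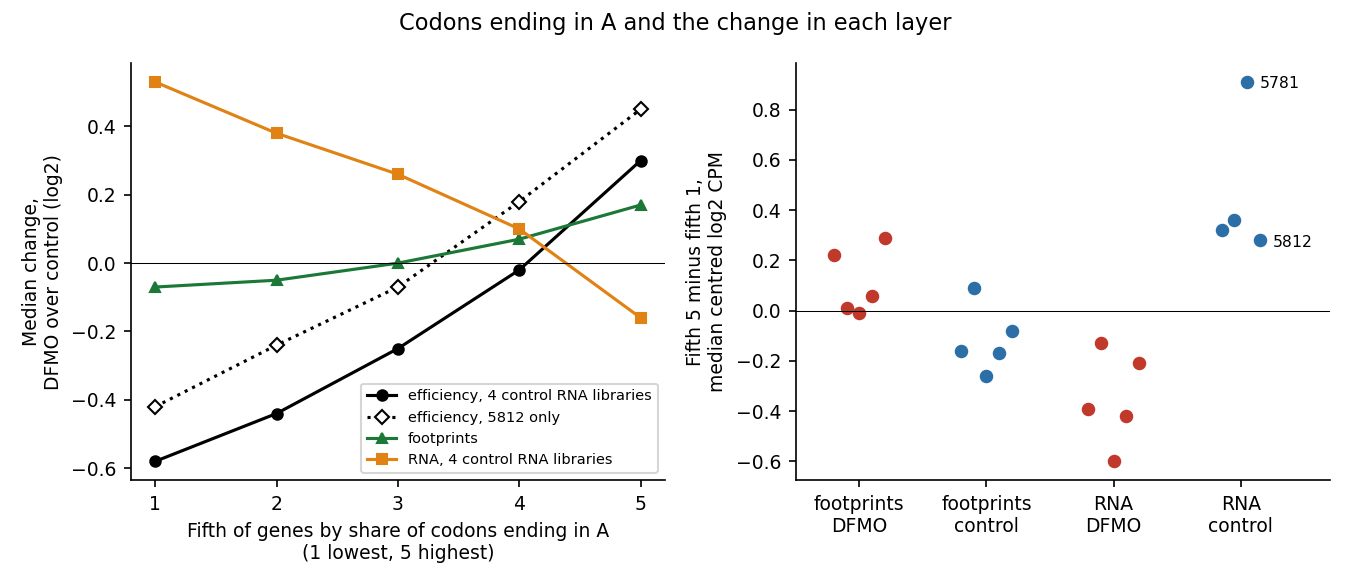
Left, median log2 change (DFMO over control) of genes in quintiles ordered by the share of codons ending in A, for efficiency with 4 control RNA libraries, efficiency with CD_5812 alone, footprints and RNA. Right, the highest minus the lowest quintile in each library of DFMO tumors (red) and control tumors (blue); RNA values are -0.60 to -0.13 in DFMO tumors and 0.28 to 0.91 in control tumors.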

How the data were processed

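Ribosome footprints and total RNA were measured in the same tumor extracts. The authors deposited counts per gene, 1 transcript each, and RPKM, for 39 libraries. Alignment used cutadapt, HISAT2 and Bowtie2 with GRCm38, per the submitters' processing notes; their versions, the counter, the annotation and the strand setting are not stated there. The deposited RPKM values were used in 1 alternative, as log2(RPKM + 1).

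Counts of all 39 libraries were fitted together in edgeR 4.0.16 (R 4.3.3; robust quasi-likelihood, TMM over all libraries) with 1 coefficient per assay and group, so that all groups share 1 estimate of the spread. Genes passing filterByExpr in footprints and in RNA, 11847 of 20333, were tested. Efficiency is the footprint contrast minus the RNA contrast, with Benjamini-Hochberg adjustment over all genes. CPM values use the TMM sizes, except the summed marker levels and the single marker levels beside them, which use plain library totals unless stated. Per-mouse ratios use log2 CPM with a prior count of 2. Lists are described by counts and medians, with no test of the list. Errors after ± are standard errors of the fit.

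Members and lists were chosen with earlier results of these data known. Named genes were the 17 panel genes; for the RNA-only, footprints-only and both-opposite classes, the up to 4 largest rises and 4 largest falls that passed with 4 control RNA libraries and with CD_5812 alone, with a mean of at least 10 CPM in each assay and no predicted genes; and up to 3 members of each list with the smallest p. The text follows 48 of these 98 genes through the alternatives, picked with their values known. It gives Acta1, Amy2a5 and Pnlip only beside a marker sum, and H1f3 and H3c3 only beside H1f4. Only the start of coding sequences from GENCODE M21 is printed.

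Same-numbered libraries come from the same mouse by the labels, yet within-group deviations of the 2 assays correlated above 0.1 in 9 of 19 mice (-0.285 to 0.577). On simulated counts of 11847 genes, 35 of 50 footprint changes and 36 of 50 RNA changes of 4-fold were called for DFMO against control, and 3 and 6 of 50 at 2-fold. Apart from those changes, each simulated gene had 1 level per assay and 1 spread over all libraries. The differences among the control RNA libraries were not simulated, so the rates need not hold for these data. Alternatives were RLE scaling, TMM within each assay, no filter, DESeq2 1.42.0, limma 3.58.1 (voom with quality weights, and on RPKM), a mouse block, the 2 groups alone, fewer RNA libraries, thinned footprints and leaving out each mouse. The fit of each layer on its own assay, the counts per list with fewer libraries, the codon medians within quintiles and those for T, G and C were chosen after seeing the data.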

Additional observations from a re-analysis of the deposited data

Results flagged for a closer look

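Values far from the others of their group were looked for in 82 groups of values, where chance marks about 1 in 20, and 4 were found. The footprint library of DFMO mouse CD_DFMO_5802 held 5.13 (in units of 1000000 counts), with the next at 8.14. In control RNA, the highest minus the lowest quintile by codons ending in A was 0.91 in mouse CD_5781, with the next at 0.36. Atp13a3 had 20.1 CPM in control RNA of mouse CD_5778, with the next at 13.2. Slc7a5 had 2.23 CPM in control RNA of mouse CD_5812, with the next at 0.10.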

How the results depend on the processing

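Counts are given as efficiency higher, efficiency lower, RNA only, footprints only, and both layers, against 1783, 1931, 3406, 56 and 42. Voom with quality weights gave 3104, 3769, 5260, 315 and 1083, and limma on log2 RPKM gave 394, 5768, 5654, 159 and 73. With CD_5812 as the only control RNA they were 124, 60, 124, 40 and 6, without the 4 RNA libraries with few transcripts 718, 577, 877, 204 and 117, and without all 7 doubted RNA libraries 391, 347, 468, 128 and 67. Without the 3 far from their own footprints (CD_DFMO_135, CD_DFMO_5823 and Proargdrop_DFMO_5732) they were 1069, 1388, 2265, 37 and 21. These 3 had the lowest within-group correlations with their own footprints (-0.0869, -0.16 and -0.285). By deviations from the mean of all RNA libraries, controls CD_5781 (0.07) and CD_5696 (0.12) were lower than Proargdrop_DFMO_5732 (0.18). The 184 calls with CD_5812 alone became 1295 without the 4 and 738 without the 7. Footprints only and both layers were 128 and 144 by DESeq2, 36 and 23 with the 19 libraries alone, and 290 and 475 with each layer fitted on its own assay, and footprints only was 37 with thinned footprints.

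Leaving out each mouse gave 1112 (without CD_5778) to 1877 higher, 1484 to 3110 (without CD_5812) lower, 2391 to 4674 RNA only, 18 to 82 footprints only and 14 to 52 both. With the mouse as a replicate block on 38 libraries, 1481 rose and 2042 fell, against 1655 and 1722 without the block, where footprints only was 30 and both layers 20. Layer classes could not be estimated under the block.

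Of 1152 gene values over 48 genes and 24 settings, 1054 kept direction and side of the threshold, 81 lost the call, 3 gained it and 14 changed sign. With CD_5812 as the only control RNA, 24 of the 48 genes kept both, 23 lost the call and 1 changed sign. On log2 RPKM 33 kept both, 7 lost the call, 1 gained it and 7 changed sign. The sign changes on log2 RPKM were Odc1 (-1.09), Azin1 (-0.674), Amd1 (-0.579), Paox (-0.0793), Ube2n (-0.424), Rab2a (-0.0415) and Fam168b (-0.173). The all-gene median on that scale was -0.86, and all of these but Odc1 lay above it. Odc1 was -0.0277 under the block. Leaving out each mouse, Odc1 ran from -0.229 (without CD_5812) to 0.51 and Azin1 from -0.243 (without CD_5812) to 0.615 (both without CD_5781). Eif5a was 0.0509 by voom, 0.423 with CD_5812 alone, 0.423 without the 4 and 0.366 without the 7. The cause was not tested.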
